A study of Mus musculus with 20 samples.

Results

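The response to LPS was compared between dural CNS-associated macrophages (dCAMs) that carried the tdTomato (tdT) label and those that did not, over the genes that could be counted in every library. The mice were Ccr2creERT2/+ R26tdT/tdT: 1 Ccr2 allele holds a tamoxifen-inducible Cre, so that cells expressing Ccr2 around the tamoxifen injections, and their progeny, keep the tdT label. Each of the 10 mice, controls included, had been given the CSF1R inhibitor BLZ945 (200 mg/kg, 7 days), tamoxifen (2 mg/day, on the final gavage day and 2 and 4 days after it) and, 8 weeks after the gavage, LPS (2.5 mg/kg) or PBS (CTL), and the cranial dura mater was taken at 12 h. Cells with the surface profile CD45int CD11b+ CD206int-high yielded a pair of libraries per mouse, 1 tdT+ and 1 tdT−, and thus 4 groups of 5. The tdT− cells include every macrophage whose precursor was not recombined, whatever its origin, and 1 Ccr2 allele is altered in both populations.

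Members were chosen by their lowest raw count, at least 10 in each of the 20 libraries, and 3798 of the 33243 genes in the table reached it. The fit was run on all 16632 genes with a total of at least 10 counts, of which 12834 were not members. The quantity reported is the log2 fold change of LPS against CTL in tdT+ dCAMs minus that in tdT− dCAMs, called the difference: a positive value means a stronger rise or a weaker fall in tdT+ dCAMs. A member passed when its adjusted p (Benjamini-Hochberg over all tested genes, edgeR quasi-likelihood test) was under 0.05 and its absolute log2 value over 1. Levels are CPM, counts scaled to library size with TMM factors, and 5 values of a group follow the order of the mice, 174, 175, 177, 178 and 179 for CTL and 54, 56, 59, 60 and 61 for LPS. Sample titles open with a letter, F or M, used below as the sex letter. It was F for CTL mice 174, 175 and 179 and for LPS mice 54 and 56, and M for the others. The letters were thus not split equally between the treatments.

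LPS is a cell wall component of Gram-negative bacteria that macrophages sense through TLR4, MD-2 and CD14, with signaling through MyD88 to NF-kB and through TRIF to type I interferon. The first arm drives cytokines, chemokines and feedback inhibitors, the second antiviral genes, while many genes of the resting tissue macrophage go down. Dural macrophages lie outside the blood-brain barrier near fenestrated vessels and are replaced in part by blood monocytes, so that cells of different age and origin share the tissue.

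For most members the tdT− CTL libraries set the minimum. These 5 libraries held between 6671 and 9365 genes with 10 counts, against 10024 to 11987 in the other 15, and the lowest of the 20 counts lay in one of them for 64.0% of members. A further 4017 tested genes missed membership only there. Total counts were 6017650 to 12208203 in CTL and 12073566 to 18925908 in LPS libraries, so that depth moved with treatment. Over members, tdT− CTL libraries correlated less closely with each other (r of log2 CPM 0.504 to 0.719) than libraries of the other 3 groups did (0.875 to 0.978). At the edge of the rule, 68 members had a lowest count of 10, with a median difference of −0.09 (−2.73 to 2.26), and 50 genes stopped at 9, with −0.13 (−2.88 to 2.26). All 12 markers of dural macrophages exceeded 3 counts in at least 1 library of every group. Mrc1, which encodes the CD206 of the gate, lay between 551 and 3384 CPM. Cx3cr1 and Lyve1 are not members, and Cx3cr1 was low after LPS. Cx3cr1 was at 427 to 743 CPM in tdT− CTL and 556 to 1104 CPM in tdT+ CTL libraries. In LPS libraries it was at 0.123 to 13.9 CPM in tdT− and 0 to 3.36 CPM in tdT+ dCAMs. Lyve1 was at 30.9 to 450 CPM in tdT− CTL and 0.407 to 25.5 CPM in tdT− LPS libraries. In tdT+ dCAMs its ranges overlapped, with 90.4 to 416 CPM in CTL and 21.6 to 101 CPM in LPS libraries.

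Of the 3798 members 12 passed for the difference, 9 higher and 3 lower, where 1.26% of all tested genes were called (0.0902% higher and 1.17% lower). Higher were Tnfsf9, Samsn1, Srgn, Ran, Cdkn1a, Rpl17, Ier2, Rps9 and Cd209a, and lower were Csf1r, Tgoln1 and Adgre4. Nothing is read from the contrast with the other called genes, because the counts that chose the members are those behind the difference. At an unadjusted p under 0.05 there were 301 members, 238 higher and 63 lower, where 13.1% of tested genes were (5.03% and 8.08%). The excess of higher values was smaller or gone in some other fits. Higher were 143 of 283 with the block in edgeR and 203 of 452 with the block in voom. With voom quality weights it was 211 of 382, and with TMM factors from the members alone 147 of 286. The excess remained with DESeq2 (409 of 505), filterByExpr (288 of 358), no filter on low counts (181 of 242) and the sex letter (234 of 304). Most were also higher in each fit without 1 mouse, such as 274 of 430 without CTL mouse 175. The median difference was 0.21 over members and 0.03 over all tested genes. The difference was above 0 for 2406 members, or 63.3%, and for 50.7% of all tested genes. Counts above or below 0 in the gene lists below are to be read beside these shares.

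Leaving out any LPS mouse changed the calls alike, while the change varied with the CTL mouse left out. In each of the 5 fits without 1 LPS mouse a single member passed, Tnfsf9, while the adjusted p of the other 11 lay between 0.0517 and 0.208 across these fits. Without CTL mouse 174, 17 members passed, and those lost were Csf1r (adjusted p = 0.0557), Ier2 (adjusted p = 0.108) and Cd209a (adjusted p = 0.108). Without CTL mouse 175, 50 members passed, all 12 among them. Without CTL mouse 177, 12 members passed, and those lost were Rpl17 (adjusted p = 0.0597), Rps9 (adjusted p = 0.0948), Cd209a (adjusted p = 0.088), Tgoln1 (adjusted p = 0.11) and Adgre4 (adjusted p = 0.0948). Without CTL mouse 178, 19 members passed, and those lost were Cdkn1a (adjusted p = 0.0509), Rpl17 (adjusted p = 0.0537), Ier2 (adjusted p = 0.111), Rps9 (adjusted p = 0.0697) and Cd209a (adjusted p = 0.0841). Without CTL mouse 179, 21 members passed, and those lost were Cdkn1a (adjusted p = 0.0638), Ier2 (adjusted p = 0.0998), Tgoln1 (adjusted p = 0.0555) and Adgre4 (adjusted p = 0.0656). The mouse as replicate block was fitted in edgeR, as a term per mouse, and in voom, as a correlation within mice. In edgeR 6 of the 12 passed, namely Tnfsf9, Samsn1, Srgn, Csf1r, Cdkn1a and Cd209a, and in voom 6, namely Ran, Cdkn1a, Rpl17, Rps9, Tgoln1 and Adgre4. Cdkn1a alone passed in both. The voom fit called 26 members, 7 higher and 19 lower. The difference itself kept its sign in all 21 alternative fits for each of the 12. These fits reuse libraries that had picked the genes, so that a kept sign adds no independent test. Over the 10 fits without 1 mouse the difference ran from 2.59 to 3.44 for Tnfsf9, from 2.86 to 3.36 for Samsn1, from 1.16 to 1.44 for Srgn, from 3.69 to 4.48 for Cd209a and from −4.85 to −3.67 for Adgre4.

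**Figure D1:**
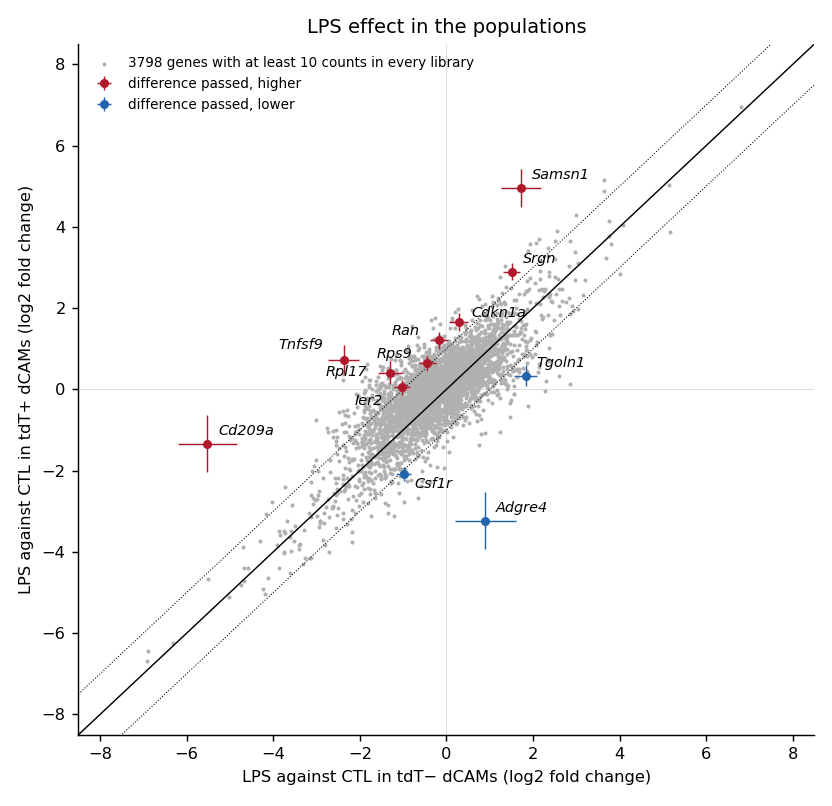
LPS effect of the 3798 members as log2 fold change of LPS against CTL in tdT− dCAMs (horizontal axis) and in tdT+ dCAMs (vertical axis). Points on the solid line respond alike, dotted lines mark a difference of 1, and the 12 genes that passed are named with bars of 1 SE, 9 in red above the line and 3 in blue below it.

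Tnfsf9 encodes 4-1BBL, a ligand of the TNF superfamily that costimulates T cells. In CTL mice its level was 265, 317, 760, 336 and 1187 CPM in tdT− and 33.8, 49.8, 62.6, 94.6 and 49.8 CPM in tdT+ dCAMs. In LPS mice it was 110, 94.8, 117, 91.3 and 143 CPM in tdT− and 115, 96.2, 120, 65 and 85.7 CPM in tdT+ dCAMs. The tdT− CTL libraries stood above every other library, and after LPS the populations overlapped. Tnfsf9 fell in tdT− dCAMs, with −2.37 (SE 0.36, adjusted p = 0.000209), and had 0.73 (SE 0.36, adjusted p = 0.281) in tdT+ dCAMs. The difference was 3.09 (95% interval 2.03 to 4.16, adjusted p = 0.00341), the smallest p among members, with adjusted p = 0.0401 in edgeR and 0.0688 in voom with the mouse as replicate block.

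Samsn1, an adaptor with SH3 and SAM domains expressed in blood cells, rose in both populations. In CTL mice it was at 107, 200, 158, 180 and 31.9 CPM in tdT− and 16.4, 10.5, 19.7, 22 and 1.99 CPM in tdT+ dCAMs. After LPS it was at 451, 433, 380, 409 and 578 CPM in tdT− and 437, 334, 406, 360 and 666 CPM in tdT+ dCAMs. The tdT+ CTL libraries lay below all tdT− CTL libraries, mouse 179 was the lowest of both, and the LPS libraries overlapped. The log2 fold change was 1.73 (SE 0.46, adjusted p = 0.0173) in tdT− and 4.96 (SE 0.46, adjusted p = 1.87e-06) in tdT+ dCAMs, a difference of 3.23 (95% interval 1.89 to 4.58, adjusted p = 0.0144), with adjusted p = 0.0114 in edgeR and 0.0847 in voom with the mouse as replicate block.

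Srgn encodes serglycin, the proteoglycan core protein of secretory granules in blood cells. It stood at 1436, 490, 1083, 1033 and 963 CPM in tdT− CTL and at 280, 275, 415, 398 and 326 CPM in tdT+ CTL libraries. In LPS mice it reached 2948, 3343, 2316, 2485 and 3202 CPM in tdT− and 2651, 2633, 2383, 2078 and 2949 CPM in tdT+ dCAMs. Every LPS library was above every CTL library, and the populations were apart in CTL mice and overlapped in LPS mice. Srgn rose by 1.51 (SE 0.20) in tdT− and by 2.90 (SE 0.20) in tdT+ dCAMs on the log2 scale, with a difference of 1.39 (95% interval 0.79 to 1.99, adjusted p = 0.0164), with adjusted p = 0.0401 in edgeR and 0.706 in voom with the mouse as replicate block.

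Promoters of 8 of the 12 genes, 10 sequences in all, were in the RefSeq table (GRCm38.p6, 250 bases before to 50 after a start). They were searched on both strands for NF-kB (GGANTTTCC), AP-1 (TGANTCA), an interferon response element (GAAANNGAA) and PU.1 (GAGGAAGT), letters that 1.25%, 7.81%, 8.56% and 3.2% of the 32851 promoters in the table hold, in that order. No match was found in 7 of the 10, and the other 3 are shown, with matches in capitals, since they are those with any of these letters. Samsn1 holds the PU.1 letters once on each strand (chr16:75909217-75909516, minus strand). Srgn holds the interferon response letters at the downstream one of its starts (chr10:62507708-62508007, minus strand), and Adgre4 the PU.1 letters, on the opposite strand, after its start (chr17:55749734-55750033, plus strand). A match describes the letters and is no evidence of binding.
Samsn1: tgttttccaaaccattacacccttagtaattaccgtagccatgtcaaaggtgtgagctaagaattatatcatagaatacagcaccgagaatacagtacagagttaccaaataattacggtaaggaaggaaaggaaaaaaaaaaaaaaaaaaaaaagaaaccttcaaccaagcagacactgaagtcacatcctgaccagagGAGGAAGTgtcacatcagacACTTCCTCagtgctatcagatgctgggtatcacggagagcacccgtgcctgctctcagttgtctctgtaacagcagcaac
Srgn: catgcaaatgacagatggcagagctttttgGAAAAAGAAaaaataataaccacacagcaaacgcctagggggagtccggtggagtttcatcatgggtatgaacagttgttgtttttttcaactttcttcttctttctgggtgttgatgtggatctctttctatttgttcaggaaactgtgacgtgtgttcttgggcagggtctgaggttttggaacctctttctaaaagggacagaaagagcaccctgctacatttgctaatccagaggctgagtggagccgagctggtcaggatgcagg
Adgre4: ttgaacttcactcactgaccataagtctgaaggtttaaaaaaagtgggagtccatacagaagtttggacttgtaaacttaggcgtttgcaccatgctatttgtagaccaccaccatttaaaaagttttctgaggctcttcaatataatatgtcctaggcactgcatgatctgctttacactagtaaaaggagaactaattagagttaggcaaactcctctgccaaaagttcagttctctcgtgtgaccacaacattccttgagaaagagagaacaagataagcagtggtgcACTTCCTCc

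Cdkn1a encodes p21, the inhibitor of cyclin-dependent kinases induced by p53. In CTL mice it was at 274, 321, 680, 585 and 536 CPM in tdT− and 127, 177, 239, 228 and 164 CPM in tdT+ dCAMs. LPS mice had 609, 628, 559, 602 and 521 CPM in tdT− and 684, 615, 593, 496 and 557 CPM in tdT+ dCAMs. The tdT+ CTL libraries lay below all others, and the tdT− CTL libraries overlapped the LPS libraries. Cdkn1a rose in tdT+ dCAMs, with 1.65 (SE 0.22, adjusted p = 4.86e-05), and had 0.28 (SE 0.22, adjusted p = 0.417) in tdT− dCAMs, a difference of 1.37 (95% interval 0.71 to 2.03, adjusted p = 0.0344), with adjusted p = 0.0401 in edgeR and 0.0167 in voom with the mouse as replicate block.

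Ran is the small GTPase of nuclear transport. Its level in CTL mice was 150, 115, 143, 154 and 116 CPM in tdT− and 57, 47.9, 67.6, 73.7 and 53.7 CPM in tdT+ dCAMs, and in LPS mice 106 to 130 CPM and 118 to 154 CPM. Again the tdT+ CTL libraries were the low ones. Ran rose in tdT+ dCAMs, with 1.21 (SE 0.21, adjusted p = 0.00083), and its difference was 1.38 (95% interval 0.75 to 2.02, adjusted p = 0.0225), with adjusted p = 0.118 in edgeR and 0.00515 in voom with the mouse as replicate block. Ran has processed pseudogenes, so that its counts are uncertain where reads were split between copies.

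Csf1r encodes the receptor for CSF1 and IL-34 on which macrophages depend and which BLZ945 inhibits. It was at 2058, 3799, 3187, 1796 and 2704 CPM in tdT− CTL and at 6175, 6283, 5656, 5657 and 6189 CPM in tdT+ CTL libraries. LPS mice had 1481, 1250, 1717, 1298 and 1063 CPM in tdT− and 1623, 1400, 1479, 1521 and 1056 CPM in tdT+ dCAMs. The populations were apart in CTL mice and overlapped in LPS mice, and every LPS library lay below every CTL library. Csf1r fell in tdT+ dCAMs, with −2.08 (SE 0.17, adjusted p = 5.85e-08). In tdT− dCAMs it had −0.99 (SE 0.17, adjusted p = 0.000454), just short of the size threshold, and the difference was −1.09 (95% interval −1.59 to −0.59, adjusted p = 0.0234), with adjusted p = 0.0401 in edgeR and 0.337 in voom with the mouse as replicate block.

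Adgre4, an adhesion G protein-coupled receptor of the EGF-TM7 family on myeloid cells, was higher in tdT+ than in tdT− dCAMs of each CTL mouse and lower in each LPS mouse. In CTL mice it was at 41.1, 75.7, 13.7, 1.69 and 5.89 CPM in tdT− and 54, 188, 138, 85 and 125 CPM in tdT+ dCAMs. In LPS mice it was at 112, 42.2, 50.3, 31.1 and 23.1 CPM in tdT− and 12.4, 11.6, 17.3, 5.24 and 16.1 CPM in tdT+ dCAMs. The tdT− CTL libraries spread widely and overlapped those of tdT+ CTL, and the LPS populations were separate. Adgre4 fell in tdT+ dCAMs, with −3.23 (SE 0.70, adjusted p = 0.00964), and had 0.90 (SE 0.70, adjusted p = 0.407) in tdT− dCAMs. The difference was −4.14 (95% interval −6.20 to −2.08, adjusted p = 0.0493), with adjusted p = 0.0795 in edgeR and 0.00982 in voom with the mouse as replicate block, and the lowest count was 15.

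Tgoln1, a membrane protein that cycles through the trans-Golgi network, stood at 37.8, 91.2, 57.9, 140 and 97.6 CPM in tdT− CTL and at 188, 269, 348, 244 and 295 CPM in tdT+ CTL libraries. In LPS mice it was at 278 to 318 CPM in tdT− and 307 to 372 CPM in tdT+ dCAMs. The tdT− CTL libraries were below all others. Tgoln1 rose in tdT− dCAMs, with 1.83 (SE 0.26, adjusted p = 7.65e-05), and had 0.34 (SE 0.26, adjusted p = 0.561) in tdT+ dCAMs, a difference of −1.49 (95% interval −2.26 to −0.73, adjusted p = 0.0493), with adjusted p = 0.0723 in edgeR and 0.00467 in voom with the mouse as replicate block.

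Cd209a, a C-type lectin related to DC-SIGN and a marker of monocyte-derived dendritic cells, had the largest positive difference of all members, 4.17 (95% interval 2.12 to 6.22, adjusted p = 0.0463), with adjusted p = 0.0478 in edgeR and 0.564 in voom with the mouse as replicate block. In CTL mice it was at 2774, 315, 1199, 1072 and 780 CPM in tdT− and 51.8, 52.8, 25.5, 25.7 and 65.1 CPM in tdT+ dCAMs. In LPS mice it was at 3.44, 26.3, 31.6, 11.3 and 61.5 CPM in tdT− and 5.13, 8.42, 36.4, 2.74 and 34.3 CPM in tdT+ dCAMs. The tdT− CTL libraries stood above all others, with mouse 175 the lowest of them, and the LPS populations overlapped. Cd209a fell in tdT− dCAMs, with −5.52 (SE 0.69, adjusted p = 0.000119), and had −1.34 (SE 0.70, adjusted p = 0.315) in tdT+ dCAMs. The other 5 dendritic cell markers examined summed to 12.8 to 556 CPM in tdT− CTL, 7.54 to 40 CPM in tdT+ CTL, 230 to 634 CPM in tdT− LPS and 4.62 to 18.2 CPM in tdT+ LPS libraries, with Xcr1 and Clec9a at 0 in every tdT− CTL library. In tdT− dCAMs the median of Ccr7, a chemokine receptor of migrating dendritic cells, went from 7.23 CPM in CTL to 363 CPM in LPS mice. Its ranges, 0 to 214 and 222 to 599 CPM, did not overlap. The medians of Flt3 and Zbtb46 went from 30.7 to 6.2 CPM and from 44 to 7.97 CPM. In LPS libraries these genes ran from 4.07 to 20.8 and from 3.44 to 14.1 CPM. Both ranges lay within those of the CTL libraries, 1.02 to 348 and 0 to 197 CPM. The part of these markers in the result was not tested, and in bulk RNA fewer cells of a type and less RNA per cell cannot be told apart.

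Ier2, an immediate early gene, was at 2028, 1046, 1068, 1967 and 1990 CPM in tdT− CTL and at 676, 1032, 1018, 880 and 798 CPM in tdT+ CTL libraries. LPS libraries had 685 to 897 CPM in tdT− and 751 to 1011 CPM in tdT+ dCAMs. In CTL mice 175 and 177 the populations were nearly equal, and in the other 3 CTL mice tdT− dCAMs were higher. Ier2 fell in tdT− dCAMs, with −1.03 (SE 0.19), and its difference was 1.08 (SE 0.26, adjusted p = 0.0463), with adjusted p = 0.169 in edgeR and 0.0499 in voom with the mouse as replicate block, where the voom value of 0.98 missed the size threshold.

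Both remaining members that passed encode ribosomal proteins. Rpl17 was at 182, 65.3, 137, 163 and 125 CPM in tdT− CTL, at 34.4 to 44.5 CPM in tdT+ CTL, and at 48.1 to 60.4 CPM and 47.2 to 55.9 CPM in tdT− and tdT+ LPS libraries. All tdT− CTL libraries were above all others. Its difference was 1.71 (SE 0.40, adjusted p = 0.0357), with adjusted p = 0.179 in edgeR and 0.0429 in voom with the mouse as replicate block. Rps9 was at 592, 309, 632, 685 and 431 CPM in tdT− CTL, at 223 to 313 CPM in tdT+ CTL, and at 362 to 446 CPM and 372 to 428 CPM in tdT− and tdT+ LPS libraries. Here mouse 175, the lowest tdT− CTL library for both genes, overlapped the tdT+ CTL range. The difference was 1.08 (SE 0.26, adjusted p = 0.0463), with adjusted p = 0.0999 in edgeR and 0.0182 in voom with the mouse as replicate block. Processed pseudogenes make the counts of ribosomal protein genes uncertain.

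**Figure D2:**
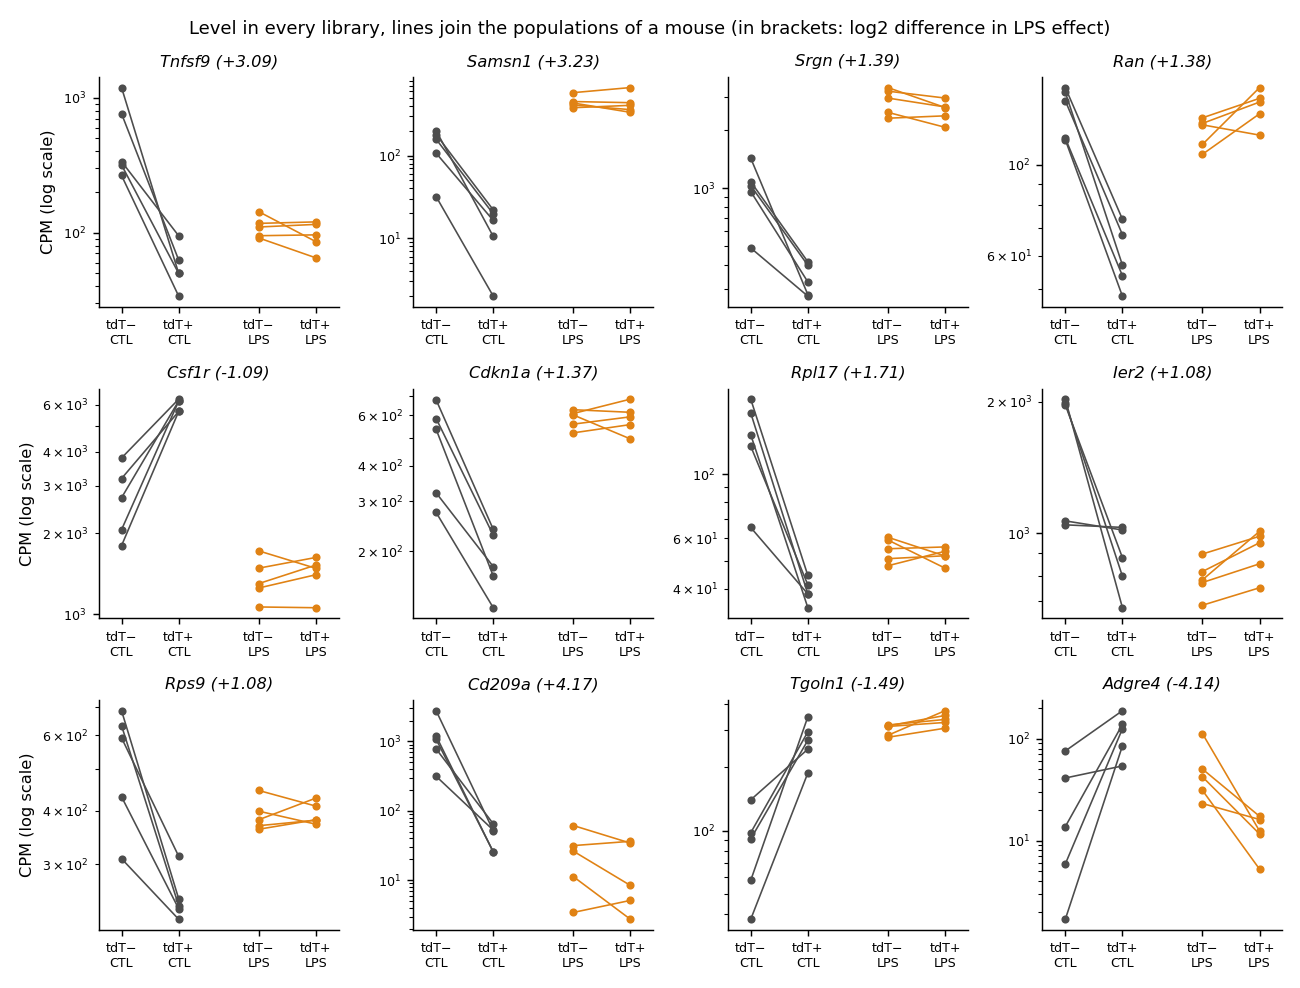
CPM (log scale) of the 12 genes that passed, 1 point per library, with a line joining the tdT− and the tdT+ library of a mouse, CTL mice in dark gray and LPS mice in orange. For Tnfsf9 the CTL lines fall from 265 to 1187 CPM to 33.8 to 94.6 CPM, and the LPS lines stay between 65 and 143 CPM.

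Taken within each mouse, log2 CPM of tdT+ minus tdT− averaged −3.13 ± 1.03 for Tnfsf9 over the 5 CTL mice and −0.22 ± 0.37 over the 5 LPS mice (mean ± SD). For Csf1r the values were 1.20 ± 0.42 and 0.06 ± 0.18, and for Ran −1.18 ± 0.14 and 0.20 ± 0.21. For all 12 genes the CTL and LPS mice did not overlap, and a two-sided exact permutation test over the 10 mice gave p = 0.00794 for each, the smallest value that 252 permutations allow. The libraries are those that had picked the genes, so that this adds no independent test. Among all members 187 did not overlap, 123 higher and 64 lower, where 3.85% of tested genes did not (1.09% and 2.76%).

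The 12 members next in order of p, 7 higher and 5 lower, did not pass (adjusted p 0.0284 to 0.088, edgeR). Sirpa, the inhibitory receptor for CD47, missed only the size threshold, with −0.99 (SE 0.22, adjusted p = 0.0284). It was at 562 to 713 CPM in tdT− CTL, 776 to 1087 CPM in tdT+ CTL, 361 to 459 CPM in tdT− LPS and 205 to 354 CPM in tdT+ LPS libraries. Its tdT+ libraries were thus above the tdT− libraries in CTL mice and below them in LPS mice, without overlap in either. Pla2g7, which degrades platelet-activating factor, rose in both populations, with 2.90 (SE 0.15) in tdT− and 2.04 (SE 0.15) in tdT+ dCAMs, and had −0.86 (SE 0.22). Grn, the precursor of granulins, had −0.75 (SE 0.19), Pik3r1, a regulatory subunit of phosphoinositide 3-kinase, −2.09 (SE 0.56), and Fam168b −1.53 (SE 0.39).

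On the positive side, Dusp2, a MAP kinase phosphatase, had 1.69 (SE 0.44) and rose in tdT+ dCAMs, with 1.90 (SE 0.31). Olfm1, a secreted olfactomedin, had 2.36 (SE 0.58), Arid5a, an RNA-binding protein that stabilizes inflammatory transcripts, 1.03 (SE 0.28), and Cmas, which activates sialic acid, 1.94 (SE 0.51). Psmb1, a subunit of the proteasome core, had 1.18 (SE 0.31) and Rpl12, a ribosomal protein, 1.67 (SE 0.44). Tmsb10, an actin-binding thymosin, had 1.55 (SE 0.43) and was at 127 to 398 CPM in tdT− CTL, 31.9 to 51.6 CPM in tdT+ CTL, 30.4 to 63.3 CPM in tdT− LPS and 18.7 to 24.7 CPM in tdT+ LPS libraries. In this gene the tdT− libraries were above the tdT+ libraries under both treatments.

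Ribosomal protein genes formed the list furthest from 0. Of 81 members drawn by symbol prefix, 2 passed higher, 0 lower and 79 did not pass, while 39 were higher at an unadjusted p under 0.05, with a median difference of 0.93 against 0.21 over all members. DESeq2 called 20 of them higher, voom with quality weights 4 and voom with the block 3. The prefix also takes in Rps6ka1, a signaling kinase, and without it 79 of 80 had a value above 0, the exception being Rps27l at −0.06. The 80 genes summed to 6829 to 16358 CPM in tdT− CTL, 4977 to 6713 CPM in tdT+ CTL, 5071 to 5793 CPM in tdT− LPS and 4569 to 5444 CPM in tdT+ LPS libraries, so that the tdT− CTL libraries lay above all others. In tdT− dCAMs 46 of the 80 fell, with a median of −1.17, where 4.27% of all tested genes and 13.7% of members fell. In tdT+ dCAMs 3 fell, with a median of −0.21, where 2.52% of all tested genes and 8.95% of members did. Respiratory chain subunits had a median of 0.49 (73 of 80 above 0) and proteasome subunits of 0.32 (28 of 34 above 0). In edgeR 0 members of the respiratory and proteasome lists passed, 4 and 3 had an unadjusted p under 0.05, and DESeq2 called 1 of each.

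Transcript length went along with the difference. For the 96.8% of members with a length in GENCODE M21 (union of exons), Spearman's rho across genes was −0.24, and −0.21 without ribosomal and respiratory genes, a description over genes that share their libraries. Genes were split by length into 4 sets of about equal number. The median difference was 0.42 for the shortest genes (109 to 2531 bases), 0.23 and 0.08 in the next, and 0.03 in the longest (6487 to 35542 bases). Between the populations the shortest and the longest set had medians of −0.58 and −0.02 in CTL mice and of −0.11 and 0.04 in LPS mice. The part of length or RNA quality in the ribosomal values was not tested.

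Genes of LPS recognition had 15 members with a median of −0.10, of which 0 passed or had an unadjusted p under 0.05 in edgeR, 0 passed in DESeq2, and 1 was called lower by voom with the replicate block. Tlr4 rose in tdT− dCAMs, with 1.56 (SE 0.50, adjusted p = 0.0495), had 0.08 (SE 0.50) in tdT+ dCAMs, and a difference of −1.47 (SE 0.70, adjusted p = 0.383), at an unadjusted p of 0.0504. Its means were 41.1 CPM in tdT− CTL, 154 CPM in tdT+ CTL, 121 CPM in tdT− LPS and 164 CPM in tdT+ LPS libraries. Myd88, the adaptor of most TLRs, had 0.46 (95% interval −0.57 to 1.50) and Ly96, which encodes MD-2, 0.27 (95% interval −0.57 to 1.10). Among 14 NF-kB subunits and inhibitors the median was 0.01, 0 passed in edgeR or DESeq2, and 1, Nfkbia, the inhibitor that holds NF-kB in the cytoplasm, had an unadjusted p under 0.05, with 0.80 (SE 0.29, adjusted p = 0.217). Tnfaip3, which encodes A20, rose in both populations, with 1.19 (SE 0.33) in tdT− and 1.63 (SE 0.33) in tdT+ dCAMs.

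Cytokines and chemokines had a median of 0.36 over 20 members. Of these 14 were above 0, or 70%, near the 63.3% of all members. In edgeR or DESeq2 0 passed, and 4 had an unadjusted p under 0.05. They were Ccl2 and Ccl7, ligands of CCR2, with 1.56 (SE 0.52, adjusted p = 0.177) and 1.13 (SE 0.41, adjusted p = 0.216), Ccl4 with 1.58 (SE 0.64, adjusted p = 0.274) and Il1b with 0.76 (SE 0.33, adjusted p = 0.318). Ccl2, Ccl4 and Il1b rose in tdT+ dCAMs, with 1.69 (SE 0.37), 2.29 (SE 0.45) and 1.21 (SE 0.24), and had 0.13 (SE 0.37), 0.71 (SE 0.45) and 0.46 (SE 0.24) in tdT− dCAMs. Ccl7 rose in both.

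Interferon stimulated genes had a median of 0.49, with 23 of 26 above 0, 0 passed in edgeR or DESeq2 and 1 at an unadjusted p under 0.05. The latter was Oas1g, a sensor of double-stranded RNA, with 1.48 (SE 0.66, adjusted p = 0.338). Usp18, which removes ISG15 from proteins, had 1.23 (SE 0.64), and the transcription factor Irf1 fell in both populations and had −0.27 (SE 0.37). In sum the 26 genes were at 3737 to 7926 CPM in tdT− CTL, 3351 to 5896 CPM in tdT+ CTL, 9120 to 14225 CPM in tdT− LPS and 8968 to 14711 CPM in tdT+ LPS libraries, and the populations overlapped under both treatments. Among 9 TNF superfamily and costimulation genes Tnfsf9 passed and the median was −0.18.

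Lysosomal genes lay on the negative side, with a median of −0.35, 26 of 37 below 0 and 0 passed in edgeR or DESeq2, while 5 had an unadjusted p under 0.05. Ctsb, a cathepsin, had −0.60 (SE 0.17, adjusted p = 0.0965), with means of 5721 CPM in tdT− CTL, 9391 CPM in tdT+ CTL, 5879 CPM in tdT− LPS and 6388 CPM in tdT+ LPS libraries. Ctsc, which activates granule proteases, fell in both populations, with −1.80 (SE 0.11) and −2.26 (SE 0.11), a difference of −0.46 (SE 0.16, adjusted p = 0.186). Resident macrophage markers had a median of −0.18, 19 of 28 below 0, and Csf1r passed in edgeR and was the 1 called by DESeq2, with 4 lower at an unadjusted p under 0.05. Stab1, a scavenger receptor, had −0.96 (SE 0.31, adjusted p = 0.159), Dab2, an endocytic adaptor, −0.86 (SE 0.35, adjusted p = 0.266), and F13a1, a coagulation factor subunit, −0.76 (SE 0.31, adjusted p = 0.276).

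Monocyte-associated genes had a median of 0.34 over 14 members, and 0 passed in edgeR or DESeq2, with 3 higher and 2 lower at an unadjusted p under 0.05. The values ran from 1.67 for the hyaluronan receptor Cd44 (SE 0.66) and 1.54 for Ms4a4c (SE 0.59) down to −2.04 for Lyz1 (SE 0.93). In the list of thymosin, S100, annexin and actin genes 40 of 50 members were above 0, with a median of 0.33, and Samsn1, an adaptor placed in it, passed. At an unadjusted p under 0.05 there were 14 higher and 1 lower, and DESeq2 called 4 higher, while voom with quality weights or the block called 0. Capg, which caps actin filaments, had 1.35 (SE 0.39, adjusted p = 0.107) and Anxa1, an annexin, 1.73 (SE 0.53, adjusted p = 0.137). The 33 AP-1 and immediate early genes had a median of 0.29, and Ier2 passed, with 4 higher and 1 lower at an unadjusted p under 0.05 and 2 called by DESeq2. Socs3, the feedback inhibitor of cytokine receptors, rose in both populations and had 0.80 (SE 0.37).

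In the other 7 lists 0 members passed in edgeR, at most 3 of a list had an unadjusted p under 0.05, and DESeq2 called 1 member each of the glycolysis, iron and prostaglandin lists. The medians were 0.05 over 6 genes of MHC class II, 0.23 over 19 of MHC class I, 0.07 over 27 of iron and antioxidants, −0.21 over 11 of prostaglandins, −0.27 over 13 of cholesterol, 0.27 over 15 of glycolysis and 0.11 over 31 of chaperones. Prdx6, a peroxiredoxin, had 1.15 (SE 0.33, adjusted p = 0.103). With TMM factors from the members alone, the median moved from 0.21 to 0.06 over members and from 0.03 to −0.12 over all tested genes. The calls then split into 5 higher and 6 lower in place of 9 and 3, and the medians of the MHC class II, iron, chaperone and NF-kB lists turned negative (−0.11, −0.07, −0.05 and −0.14), while ribosomal (0.75), interferon (0.34) and lysosomal (−0.51) genes kept their sign.

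**Figure D3:**
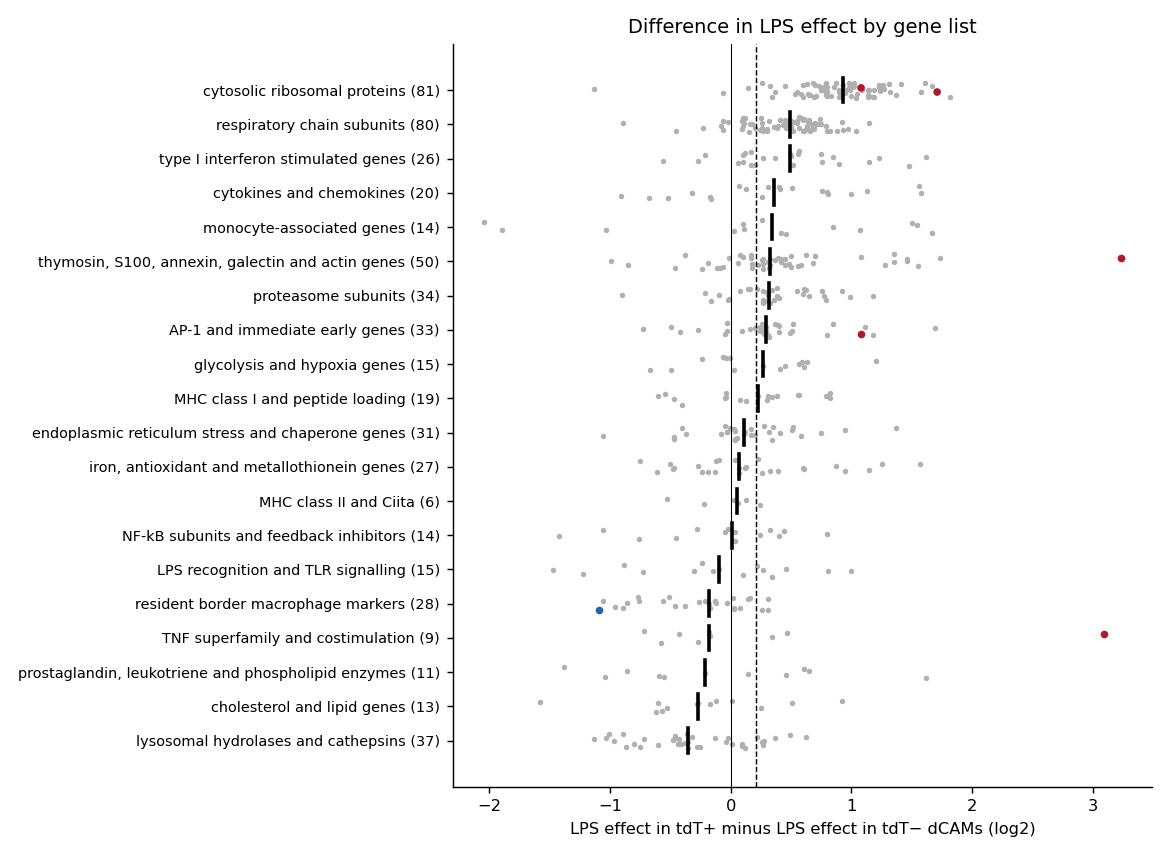
Difference in LPS effect (log2, tdT+ minus tdT−) of the members of 20 gene lists, 1 point per gene, with the number of members in brackets, a black bar at the median of each list and a dashed line at the median of all members, 0.21. Red and blue points passed, and the medians run from −0.35 for lysosomal to 0.93 for ribosomal protein genes.

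A response of similar size could be stated for a part of the members. The 95% interval of the difference lay wholly between −1 and 1 for 497 of them, or 13.1%, among them 371 of the 950 with the highest level and 0 of the 950 with the lowest. H2-Aa, an MHC class II chain, fell in both populations, with −2.52 (SE 0.16) and −2.46 (SE 0.16) and a difference of 0.06 (95% interval −0.40 to 0.52). The invariant chain Cd74 fell likewise, with −1.71 (SE 0.15) and −1.58 (SE 0.15) and a difference of 0.13 (95% interval −0.32 to 0.58). The activation marker Cd83 fell with −3.30 (SE 0.26) and −3.47 (SE 0.26) and a difference of −0.17 (95% interval −0.94 to 0.60). Lyz2, macrophage lysozyme, had a difference of 0.26 (95% interval −0.18 to 0.71), although Lyz1 is nearly identical in sequence and reads may be shared. Hpgd, which inactivates prostaglandins, fell furthest of those named, with −6.89 (SE 0.27) and −6.43 (SE 0.27), and the interval of its difference, −0.34 to 1.26, reached past 1. The median half-width over members was 1.15, so that a difference of 1 was not detectable for most of them.

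**Figure D4:**
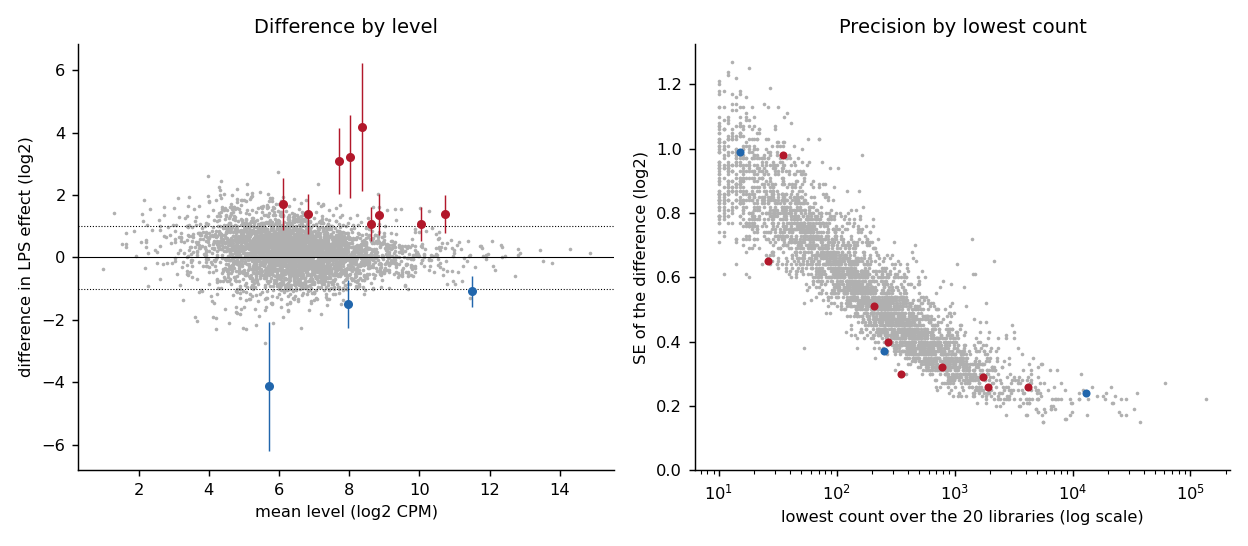
Left, difference in LPS effect (log2) of the 3798 members against their mean level (log2 CPM), with 95% intervals for the 12 that passed and dotted lines at 1 and −1. Right, SE of the difference against the lowest count over the 20 libraries (log scale): the SE is smaller for genes with more counts, such as 0.24 for Csf1r with 13071 counts against 0.99 for Adgre4 with 15.

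The comparisons that make up the difference share libraries with it. LPS against CTL was called for 751 members in tdT− dCAMs, 232 higher and 519 lower, where 11.5% of tested genes were (7.2% and 4.27%). In tdT+ dCAMs it was 584 members, 244 higher and 340 lower, where 5.89% were (3.37% and 2.52%). Between the populations 175 members were called in CTL mice, 32 higher in tdT+ and 143 lower, where 4.28% were (3.01% and 1.27%). In LPS mice it was 5 members, where 0.0301% were. With voom and the replicate block the split in tdT− dCAMs was 430 higher and 467 lower. The replicate block in edgeR lowered the counts between the populations to 93 and 3.

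These 5 members, all lower in tdT+ dCAMs of LPS mice, are named after their values were seen. They were Lsp1, a leukocyte actin-binding protein (−3.18, SE 0.30, adjusted p = 6.63e-05), Ccr2, whose locus drives the Cre (−2.18, SE 0.29, adjusted p = 0.00502), the thymosin Tmsb4x (−1.02, SE 0.16, adjusted p = 0.0135), the calcium-binding S100a6 (−2.74, SE 0.45, adjusted p = 0.0406) and the LIM domain protein Crip1 (−1.79, SE 0.30, adjusted p = 0.0406). In CTL mice their values were −2.19 (SE 0.30), −1.15 (SE 0.29), −0.91 (SE 0.16), −4.21 (SE 0.45) and −1.78 (SE 0.30), in that order. Ccr2 was at 419 to 906 CPM in tdT− CTL, 160 to 463 CPM in tdT+ CTL, 55.2 to 92.2 CPM in tdT− LPS and 9.65 to 22.6 CPM in tdT+ LPS libraries. It fell in both populations, and its difference was −1.03 (SE 0.42, adjusted p = 0.267).

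Markers of other cells moved with the groups, and their part in the differences was not tested. The 8 neutrophil markers summed to 1.87 to 181 CPM in tdT− CTL, 0.733 to 31.1 CPM in tdT+ CTL, 262 to 823 CPM in tdT− LPS and 244 to 571 CPM in tdT+ LPS libraries, with Ly6g and Cxcr2 at 0 in every tdT+ CTL library. S100a8 (medians 272 and 408 CPM in tdT− and tdT+ LPS libraries), Mmp8 (83 and 102 CPM) and, in tdT− dCAMs, Retnlg (64.8 CPM) made up most of the LPS sums. In LPS libraries of both populations the medians of S100a9, Ly6g, Cxcr2 and Ngp were at most 0.984 CPM. The 5 fibroblast markers came to 10.9 to 3993 CPM in tdT− CTL libraries, where mouse 179 was the highest, and to at most 336 CPM elsewhere. Without CTL mice 174 and 179, whose tdT− libraries held the fewest genes with 10 counts, 37 members were called, 15 higher and 22 lower, among them Cdkn1a, Ran, Rpl17, Rps9, Samsn1, Tgoln1 and Tnfsf9.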

How the data were processed

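RNA of sorted cells was amplified as low-input cDNA and sequenced, and the sources used here name no molecular identifiers, so that reads are not independent molecules. The authors deposited raw read counts per gene for all 20 libraries, and the submitters' processing notes name bcl2fastq 2.20, STAR 2.7.11a and featureCounts 2.0.6. Genes with a total of at least 10 counts were fitted with edgeR 4.0.16 (R 4.3.3; TMM, 1 mean per group, quasi-likelihood), and 5 contrasts were tested. Within-mouse values used log2 CPM with a prior count of 2. Alternatives used DESeq2 1.42.0, limma 3.58.1 (voom), other filters and scalings, a sex letter and mice left out. Libraries with the same mouse number come from the same animal, and the replicate block rests on this. Their deviations from the group means correlated at −0.00985 to 0.0322 in CTL and 0.227 to 0.468 in LPS mice. Members and gene lists were chosen with earlier results of these data known. Named genes were the members that passed, the next in order of p up to 24 in all, and in each list up to 4 per direction with the smallest p. The edgeR test of the difference was checked on simulated counts with 1 fixed spread for all genes, the same in all 4 groups. That spread was set well below the common one estimated over all tested genes (biological coefficient of variation 1.13). In the data the tdT− CTL libraries spread more widely than the others. Error rates under this unequal spread, or at the size of spread in the data, were not checked.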

Additional observations from a re-analysis of the deposited data

Results flagged for a closer look

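For 12 members the edgeR test of the difference itself found unequal LPS effects in the 2 populations. On the log2 scale the difference was 3.09 for Tnfsf9, 3.23 for Samsn1, 1.39 for Srgn, 1.38 for Ran, 1.37 for Cdkn1a, 1.71 for Rpl17, 1.08 for Ier2, 1.08 for Rps9 and 4.17 for Cd209a. These positive values mean a stronger rise or a weaker fall in tdT+ dCAMs, not a higher level. It was −1.09 for Csf1r, −1.49 for Tgoln1 and −4.14 for Adgre4. No library stood apart from its group in 48 Dixon tests of single libraries in these genes (critical ratio 0.71), where chance alone marks about 1 in 20. With 5 values per group such a test can miss an outlying library, above all where a group spreads widely.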

How the results depend on the processing

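The 12 members called for the difference became 95 with DESeq2, 6 with the mouse as replicate block in edgeR, 26 with voom and the block (7 higher and 19 lower), 22 with filterByExpr, 5 with no filter on low counts, 7 with the sex letter and 37 without CTL mice 174 and 179, the last chosen, like TMM over members, after seeing the data. Leaving out 1 mouse gave 1 to 50. Members called between the populations of CTL mice, 175, became 360 with DESeq2, 93 with the replicate block, 116 with no filter and 54 with voom quality weights (96 to 257 without 1 mouse). In LPS mice the 5 became 14 with DESeq2, 3 with the block, 3 with the sex letter and 20 with quality weights (1 to 6 without 1 mouse). The LPS effect in tdT+ dCAMs went from 584 to 894 with quality weights (454 to 633 without 1 mouse), and in tdT− dCAMs it stayed within 1.5 times of 751 (553 to 847 without 1 mouse). The cause of these shifts was not tested. None of the 24 genes named in order of p changed the sign of the difference in the 21 alternative fits. As these fits reuse libraries that had picked the genes, this adds no independent test. Low counts in tdT− CTL libraries limit what could be measured: 4017 tested genes missed membership only there.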
